A study of Mus musculus with 6 samples.

Results

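The 10 genes described here belong to the calcium, calcineurin and NFAT pathway of T cells and to the Homer scaffold family. They are the transcription factors Nfatc1, Nfatc2 and Nfatc3, the calcineurin catalytic subunits Ppp3ca and Ppp3cb, the calcineurin regulator Rcan1, the calcium sensor Stim1 and the scaffolds Homer1, Homer2 and Homer3. They were found by matching each Ensembl identifier to its symbol in the GENCODE M21 annotation, and all 10 were among the 54446 genes of the count tables. Homer1 was picked because its level was higher in the Ythdf2 cKO libraries, so its genotype difference is given as a description with no test. The other 9 genes were added as its pathway and family, and 9 of the 10 (all but Homer2) had enough reads to be tested.

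Total RNA was sequenced from regulatory T (Treg) cells, a suppressive CD4 lineage defined by the factor Foxp3, which were sorted from B16F10 tumours, a mouse melanoma line injected under the skin. The 3 libraries labelled Ythdf2 cKO have the genotype Foxp3CreYthdf2fl/fl and the 3 control libraries the genotype Foxp3CreYthdf2fl/+. Both groups therefore carry the Cre recombinase driven by Foxp3, which acts in Foxp3-expressing cells, and the controls, titled WT by the submitters, carry 1 floxed allele. All cells were enriched for CD4 and sorted as live CD45+ CD4+ GFP+ cells. Ythdf2 cKO replicate 1 and control replicates 1 and 2 came from cage 1, and Ythdf2 cKO replicates 2 and 3 and control replicate 3 from cage 2. The labels used here name no strain, sex or age. They do not say whether libraries come from different mice, so a p-value here reflects library-to-library spread, which may be technical.

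In T cells, antigen receptor signals empty calcium from the endoplasmic reticulum. Stim1 senses the loss and opens channels in the cell surface, calcium and calmodulin then activate the phosphatase calcineurin, and calcineurin strips phosphates from NFAT proteins so that they enter the nucleus. NFAT is a DNA-binding partner of Foxp3 in Treg cells, Rcan1 binds calcineurin and holds it back, and Homer proteins are best known as synaptic scaffolds in neurons, of which Homer2 and Homer3 were found in T cells to bind NFAT in competition with calcineurin. Ythdf2 encodes a reader of N6-methyladenosine (m6A) that promotes the decay of the mRNAs it binds.

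Gene counts ran from 5602053 to 9960861 in the libraries labelled Ythdf2 cKO and from 8923124 to 13602069 in the controls. Levels are CPM, read counts scaled to library size, with library sizes corrected by the trimmed mean of M values (TMM), and fold changes are on the log2 scale. The targeted gene did not separate the groups. Ythdf2 was at 89.8, 104 and 104 CPM in Ythdf2 cKO replicates 1 to 3, against 124, 102 and 92.8 CPM in control replicates 1 to 3, with a log2 fold change of -0.10 ± 0.16 (SE; edgeR quasi-likelihood adjusted p = 1.00). Which exons the floxed allele removes is not given in the labels, so directions below are those of the libraries as labelled. The 9 Treg markers, Foxp3 and Cd4 among them, had reads in every library. Melanoma markers were present too and followed the cage: the sum of 12 markers was 2928 to 5981 CPM in the 3 libraries of cage 2 and 60.7 to 611 CPM in the 3 libraries of cage 1. Tyr, one of the 12, was at 0 in Ythdf2 cKO replicate 1. In control replicate 3 the share of mitochondrial ribosomal RNA was 42.6%, and it was 9.97% to 19.2% in the other 5 libraries.

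Per kilobase of exon, the NFAT genes were the most abundant of the 10. Nfatc1 averaged 29.9 ± 6.88 CPM per kilobase over the 6 libraries, Nfatc3 23.7 ± 3.32 and Nfatc2 19.5 ± 3.41 (SD, n = 6). Ppp3cb followed at 10.2 ± 1.09, Stim1 at 10.1 ± 1.63, Ppp3ca at 6.52 ± 0.70 and Homer1 at 4.36 ± 1.17 CPM per kilobase, and Rcan1 stood at 1.90 ± 0.32 and Homer3 at 0.75 ± 0.70 CPM per kilobase. The ranges of the 3 NFAT genes overlapped with each other, as did Ppp3cb with Stim1, Ppp3ca with Homer1 and Rcan1 with Homer3. Nfatc2 and Ppp3cb, Stim1 and Ppp3ca, and Homer1 and Rcan1 were separated in all 6 libraries without overlap.

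**Figure D1:**
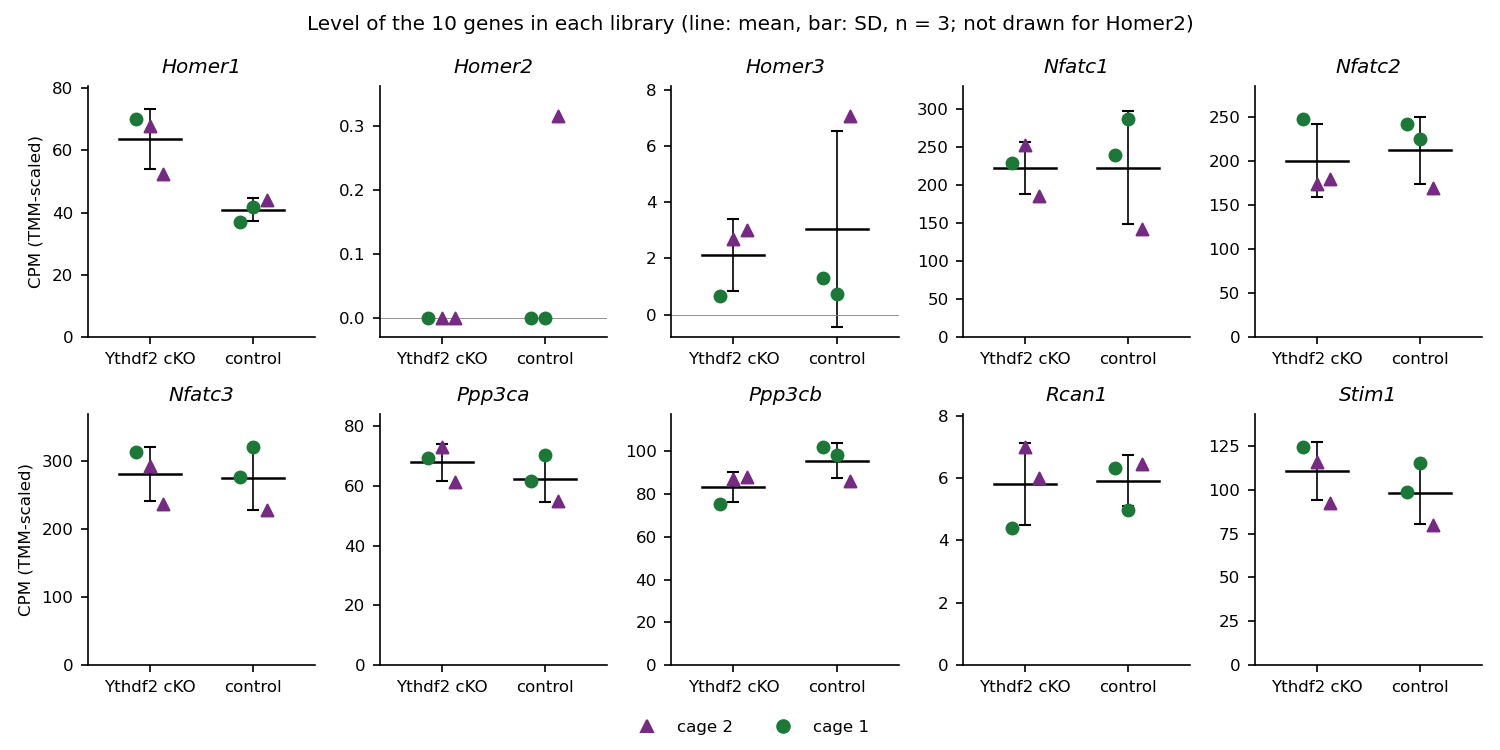
Level of each of the 10 genes in the 6 libraries, in CPM, with Ythdf2 cKO libraries left of control libraries, circles for cage 1, triangles for cage 2, a line for the mean and a bar for the SD (n = 3; not drawn for Homer2). Homer1 lies between 52.6 and 70.2 CPM in the Ythdf2 cKO libraries and between 36.9 and 44.0 CPM in the controls, while Nfatc2 separates by cage.

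Homer1 (ENSMUSG00000007617.18, chromosome 13, 93299635 to 93405129, plus strand, mm10) was at 70.2, 68.0 and 52.6 CPM in Ythdf2 cKO replicates 1 to 3, against 36.9, 41.9 and 44.0 CPM in control replicates 1 to 3. Each library labelled Ythdf2 cKO lay above each control, and this was the value by which the gene was chosen. The means were 63.6 ± 9.61 CPM in the Ythdf2 cKO libraries and 40.9 ± 3.67 CPM in the controls (SD, n = 3 each), with a log2 fold change of 0.64 ± 0.18 (SE). Of all 13172 genes tested, 7.62% had groups that did not overlap, 3.4% with the Ythdf2 cKO libraries higher and 4.22% with them lower. The log2 ratio of Homer1 was 0.83 within cage 1, where 1 Ythdf2 cKO library met 2 controls, and 0.45 within cage 2, where 2 met 1. Over the 15 alternatives to the processing its log2 fold change ran from 0.55 to 0.79. This range and the SEs of Homer1 by genotype come from the libraries by which it was chosen. They describe the fits and are no test of the difference.

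The separation depended on what the reads were divided by. Per 1000 reads of the 9 Treg markers, a ratio added after the data were seen, Homer1 stood at 9.93, 12.6 and 11.9 in the Ythdf2 cKO libraries and at 5.19, 6.42 and 11.4 in the controls. Control replicate 3 then lay above Ythdf2 cKO replicate 1, and the groups overlapped. Scaled to these markers the log2 fold change was 0.59 ± 0.36 (SE).

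By cage, Homer1 was at 54.9 ± 12.1 CPM in cage 2 and 49.6 ± 17.96 CPM in cage 1 (SD, n = 3 each), and the libraries of the cages overlapped. With the genotype in the fit the log2 fold change was -0.03, with a 95% interval from -0.45 to 0.38 (edgeR adjusted p = 0.93). Scaled to the Treg markers it was 0.63 and past the threshold (edgeR adjusted p = 0.044), where the median gene moved by 0.69 and 4730 of 13172 genes passed as higher. Per 1000 reads of those markers Homer1 stood at 12.6, 11.9 and 11.4 in the libraries of cage 2 and at 9.93, 5.19 and 6.42 in those of cage 1, without overlap. On this ratio Homer3, Nfatc3, Ppp3ca, Ppp3cb, Rcan1 and Stim1 were also higher in cage 2 without overlap. The share of all genes with this order on this ratio was not counted. The markers it divides by summed to less in cage 2 (3868 to 5390 CPM) than in cage 1 (6523 to 7107 CPM), which raises the ratio of any gene there.

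The gene gives rise to long forms with a coiled coil and to a short form, Homer1a, that lacks it, and counts per gene do not tell these apart. The 250 bases before both of its starts in the RefSeq table are shown because Homer1 is the gene that led to this set, with the NFAT core motif GGAAA, or TTTCC on the other strand, in capitals. Sequences are from RefSeq (GRCm38.p6, the mm10 assembly), written 5′ to 3′ on the strand of the gene.
Homer1, first start (chr13:93303507-93303756, + strand): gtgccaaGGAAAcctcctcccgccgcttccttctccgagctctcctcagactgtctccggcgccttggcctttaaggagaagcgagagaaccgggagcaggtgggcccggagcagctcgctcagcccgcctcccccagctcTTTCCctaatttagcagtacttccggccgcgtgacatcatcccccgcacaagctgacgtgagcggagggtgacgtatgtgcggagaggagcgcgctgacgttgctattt
Homer1, second start (chr13:93307784-93308033, + strand): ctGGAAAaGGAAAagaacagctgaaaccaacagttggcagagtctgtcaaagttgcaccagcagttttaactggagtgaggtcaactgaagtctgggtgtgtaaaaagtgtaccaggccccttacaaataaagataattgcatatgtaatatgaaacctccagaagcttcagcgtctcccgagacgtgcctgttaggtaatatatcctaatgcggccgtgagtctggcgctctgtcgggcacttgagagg
Both windows held 2 matches. The motif was found at least once in 55.6% of the 32851 promoter windows of this length, and a match describes letters only.

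The 5 genes whose log2 CPM followed Homer1 most closely over the 6 libraries, of 13171 compared, were Eif2ak3 (Pearson r = 0.978), which encodes a kinase of the endoplasmic reticulum stress response, Cog4 (0.978), a subunit of a Golgi tethering complex, Nup54 (0.975), a nuclear pore protein, Vmn2r96 (0.973), a vomeronasal receptor gene, and Traj24 (0.972), a joining segment of the T cell receptor alpha locus. These values share the same libraries and scaling and describe them only. Since Homer1 was picked for its higher level in the Ythdf2 cKO libraries, genes chosen for following it share that order by selection. Eif2ak3, so chosen, was at 87.6, 83.6 and 72.0 CPM in Ythdf2 cKO replicates 1 to 3, against 49.3, 62.1 and 60.4 CPM in control replicates 1 to 3. No other member of the set was among the 5.

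Homer2 (ENSMUSG00000025813.14, chromosome 7, 81600481 to 81707527, minus strand) was all but unread. It had 0 reads in each library labelled Ythdf2 cKO and 0, 0 and 2 reads in control replicates 1, 2 and 3. A count of 0 allows up to 0.49, 0.29 and 0.31 CPM in the Ythdf2 cKO libraries and up to 0.26 and 0.20 CPM in control replicates 1 and 2 (3 counts, counting error only), so it was not detectable at this depth in 5 of the 6 libraries.

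Homer3 (ENSMUSG00000003573.15, chromosome 8, 70282827 to 70294361, plus strand) was read rarely, and most in cage 2. It had 4, 28 and 29 reads (0.65, 2.69 and 3.00 CPM) in Ythdf2 cKO replicates 1 to 3 and 15, 11 and 45 reads (1.32, 0.74 and 7.08 CPM) in control replicates 1 to 3. The genotypes overlapped, with a log2 fold change of -0.48 ± 1.02 (SE; edgeR adjusted p = 1.00), and the sign turned without control replicate 3 (1.08). The cages did not overlap, as for 27.3% of all genes tested (15.1% higher and 12.2% lower in cage 2): 4.26 ± 2.45 CPM in cage 2 and 0.91 ± 0.36 CPM in cage 1 (SD, n = 3 each). The fitted log2 fold change of cage 2 over cage 1 was 2.48 ± 0.74 (SE) and missed the threshold of 0.05 with edgeR (adjusted p = 0.063) while passing it with DESeq2 (2.54, adjusted p = 0.013). All 12 melanoma markers were higher in cage 2 in the same fit, by a median of 4.42 on the log2 scale, and their part in the Homer3 difference was not tested. A further limit is that 25.4% of the exon bases of Homer3 are shared with Ddx49 on the opposite strand, and the sources used here do not give the strand setting of the counting.

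The NFAT genes did not differ by genotype past the threshold. Nfatc1 (ENSMUSG00000033016.15, chromosome 18, 80606205 to 80713071, minus strand), whose product is the inducible NFAT of activated lymphocytes, was at 230, 253 and 186 CPM in Ythdf2 cKO replicates 1 to 3, against 240, 288 and 142 CPM in control replicates 1 to 3. The groups overlapped, with control replicate 3 the lowest of all 6 libraries. The log2 fold change was -0.0044, with a 95% interval from -0.62 to 0.62 (edgeR adjusted p = 1.00), and its sign turned in 10 of 15 alternatives.

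Nfatc2 (ENSMUSG00000027544.16, chromosome 2, 168476410 to 168601657, minus strand), the NFAT already present in resting T cells, was at 248, 174 and 180 CPM in Ythdf2 cKO replicates 1 to 3, against 242, 225 and 170 CPM in control replicates 1 to 3. The spread within each genotype followed the cage. The log2 fold change by genotype was -0.08, with a 95% interval from -0.56 to 0.40 (edgeR adjusted p = 1.00; it was 0.072 with cage as a term, 0.027 under scaling by total counts and 0.016 without control replicate 1).

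Nfatc3 (ENSMUSG00000031902.10, chromosome 8, 106058840 to 106130537, plus strand), another calcineurin-regulated NFAT of T cells, was at 314, 293 and 237 CPM in Ythdf2 cKO replicates 1 to 3, against 276, 322 and 228 CPM in control replicates 1 to 3. The groups overlapped. The log2 fold change was 0.03, with a 95% interval from -0.40 to 0.46 (edgeR adjusted p = 1.00; its sign turned in 3 of 6 fits with a library left out, to -0.065 at the lowest).

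By cage, Nfatc2 was the one member of the 9 that passed the threshold, and it was lower in cage 2. Its level was 174 ± 4.93 CPM in cage 2 and 238 ± 12.1 CPM in cage 1 (SD, n = 3 each), and the 3 libraries of cage 2 lay below the 3 of cage 1. With the genotype in the fit the log2 fold change was -0.48 ± 0.12 (SE; edgeR quasi-likelihood adjusted p = 0.032). The ratio was -0.49 among the Ythdf2 cKO libraries and -0.46 among the controls. In all, 11.5% of the 13172 genes passed this test, 7.83% as higher and 3.68% as lower, so 1 of 9 members is near the background.

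The call rested on all 6 libraries. Without any single one of them the adjusted p of Nfatc2 lay between 0.060 and 0.17 (edgeR), at log2 fold changes of -0.50 to -0.45, and it was 0.051 without the genotype in the fit. Over all 15 alternatives it ran from 0.0026 (DESeq2) to 0.96 (edgeR with the replicate block added to group and cage, which leaves few degrees of freedom). Markers of other cells and of the Treg cells themselves moved with it. In the same fit 6 of 9 Treg markers were lower in cage 2, at a median of -0.64 on the log2 scale, and all 12 melanoma markers were higher. The summed Treg markers ran from 3868 to 5390 CPM in cage 2 and from 6523 to 7107 CPM in cage 1. Per 1000 reads of those markers Nfatc2 stood at 32.2, 40.6 and 43.9 in the libraries of cage 2 and at 35.1, 34.1 and 34.5 in cage 1, and the cages overlapped. Scaled to the Treg markers the log2 fold change was 0.20 (edgeR adjusted p = 0.35), where the median of all genes moved by 0.69. Relative to the median of all genes, Nfatc2 was at -0.49 under this scaling and at -0.49 with TMM. In such bulk samples fewer Treg cells and less RNA per Treg cell cannot be told apart.

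Nfatc1 and Nfatc3 lay in the same direction as Nfatc2 without passing. Nfatc1 was at 194 ± 55.4 CPM in cage 2 and 252 ± 31.0 CPM in cage 1 (SD, n = 3 each; log2 fold change -0.48 ± 0.22, edgeR adjusted p = 0.20). Nfatc3 was at 253 ± 35.1 and 304 ± 24.3 CPM in cages 2 and 1 (-0.32 ± 0.14, edgeR adjusted p = 0.18). In both genes the libraries of the cages overlapped. The sign turned for both when scaled to the Treg markers (0.19 and 0.35), where the median of all genes moved by 0.69. Relative to the median of all genes, Nfatc1 was at -0.49 with TMM and -0.50 under that scaling. Nfatc3 was at -0.33 and -0.34.

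**Figure D2:**
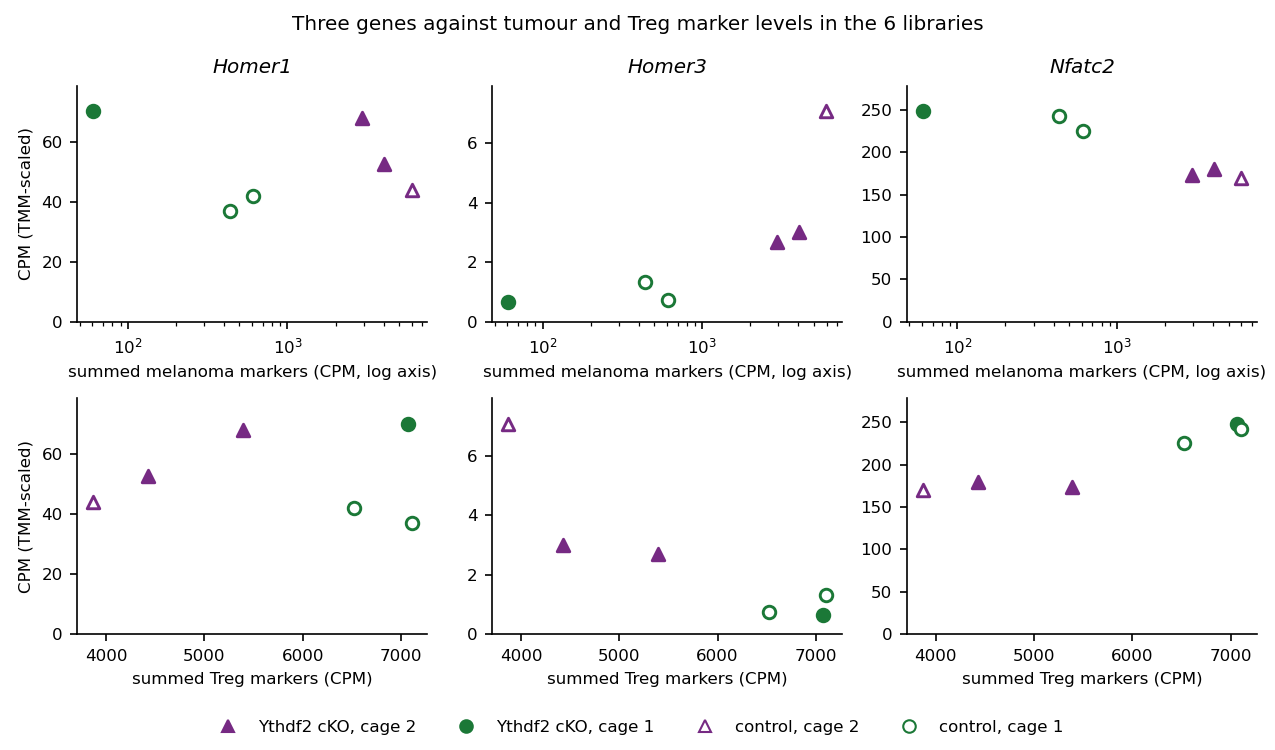
Level of Homer1, Homer3 and Nfatc2 in CPM against the summed CPM of 12 melanoma markers (top row, log axis) and of 9 Treg markers (bottom row), 1 point per library, filled for Ythdf2 cKO and open for control, triangles for cage 2 and circles for cage 1. The libraries of cage 2 have the highest melanoma sums (2928 to 5981 CPM), the lowest Nfatc2 and the highest Homer3, while Homer1 overlaps between the cages.

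The annotated first start of Nfatc2 is shown because this gene passed the test by cage, with GGAAA and TTTCC in capitals as above.
Nfatc2, first start (chr2:168601658-168601907, - strand): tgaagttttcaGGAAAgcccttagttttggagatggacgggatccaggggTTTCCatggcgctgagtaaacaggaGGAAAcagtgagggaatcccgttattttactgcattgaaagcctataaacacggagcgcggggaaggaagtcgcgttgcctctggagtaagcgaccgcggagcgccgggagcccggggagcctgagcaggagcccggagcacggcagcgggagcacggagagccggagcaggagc
It held 3 matches, a number reached or exceeded in 6.39% of all windows, and the window of the second start, not printed, held 1. The window of Ppp3cb and the second of Rcan1 also held 3, and 8 of 13 member windows held the motif at least once.

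Neither calcineurin catalytic subunit passed the threshold. Ppp3ca (ENSMUSG00000028161.17, chromosome 3, 136670124 to 136937727, plus strand), the alpha form, was at 69.2, 73.2 and 61.1 CPM in Ythdf2 cKO replicates 1 to 3, against 61.6, 70.5 and 54.9 CPM in control replicates 1 to 3. The groups overlapped, and the log2 fold change was 0.12, its 95% interval reaching from -0.26 to 0.51 (edgeR adjusted p = 1.00). Ppp3cb (ENSMUSG00000021816.11, chromosome 14, 20499364 to 20546573, minus strand), the beta form and the main one of T cells in mice, was at 75.4, 87.1 and 87.9 CPM in Ythdf2 cKO replicates 1 to 3, against 102, 98.5 and 86.3 CPM in control replicates 1 to 3. The groups overlapped through control replicate 3. The log2 fold change was -0.20 with an interval from -0.54 to 0.14 (edgeR adjusted p = 1.00), and the direction held in all 15 alternatives. By cage, Ppp3ca had a log2 fold change of -0.15 and Ppp3cb of -0.0028 (edgeR adjusted p = 0.60 and 0.99), and both turned when scaled to the Treg markers (0.51 and 0.68), the second past the threshold (edgeR adjusted p = 0.016) at a median of 0.69 over all genes. Under that scaling 4730 of 13172 genes passed as higher.

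Rcan1 (ENSMUSG00000022951.16, chromosome 16, 92391953 to 92470867, minus strand), itself a known target of NFAT, was low in all libraries. It was at 4.41, 7.02 and 6.0 CPM in Ythdf2 cKO replicates 1 to 3, against 6.34, 4.99 and 6.45 CPM in control replicates 1 to 3, from 27 to 74 reads per library. The groups overlapped and the interval was wide, with a log2 fold change of -0.02 from -0.97 to 0.92 (edgeR adjusted p = 1.00, sign turned in 4 of 15 alternatives). By cage the log2 fold change was 0.37 ± 0.46 (SE; edgeR adjusted p = 0.66). Its 2 annotated starts are shown because NFAT is known to act on the second, internal one, and because the counts sum reads from both.
Rcan1, first start (chr16:92466170-92466419, - strand): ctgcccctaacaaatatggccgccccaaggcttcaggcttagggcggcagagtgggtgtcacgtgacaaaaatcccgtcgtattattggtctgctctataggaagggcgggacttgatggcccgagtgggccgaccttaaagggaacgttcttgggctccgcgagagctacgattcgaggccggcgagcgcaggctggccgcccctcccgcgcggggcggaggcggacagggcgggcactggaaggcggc
Rcan1, second start (chr16:92400079-92400328, - strand): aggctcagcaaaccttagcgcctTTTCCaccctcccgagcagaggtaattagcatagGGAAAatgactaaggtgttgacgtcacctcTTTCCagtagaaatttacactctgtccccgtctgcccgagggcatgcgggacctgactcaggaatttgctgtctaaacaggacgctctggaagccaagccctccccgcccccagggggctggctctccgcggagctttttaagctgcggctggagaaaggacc
The first window held 0 matches and the second 3, written in capitals as above.

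Stim1 (ENSMUSG00000030987.5, chromosome 7, 102267806 to 102437319, plus strand) was at 125, 116 and 92.5 CPM in Ythdf2 cKO replicates 1 to 3, against 98.9, 115 and 79.7 CPM in control replicates 1 to 3. The Ythdf2 cKO libraries lay above the controls within each cage, as they did for Nfatc2, but the groups overlapped across cages. Each cage sets 1 library against 2, and the share of all genes with this order was not counted. The log2 fold change was 0.18, with a 95% interval from -0.27 to 0.62 (edgeR adjusted p = 1.00), and 0.08 to 0.30 over the alternatives. By cage it was -0.34 ± 0.15 (SE; edgeR adjusted p = 0.19). When scaled to the Treg markers it was 0.32, where the median of all genes moved by 0.69. Relative to the median of all genes, Stim1 was at -0.36 with TMM and -0.37 under that scaling.

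**Figure D3:**
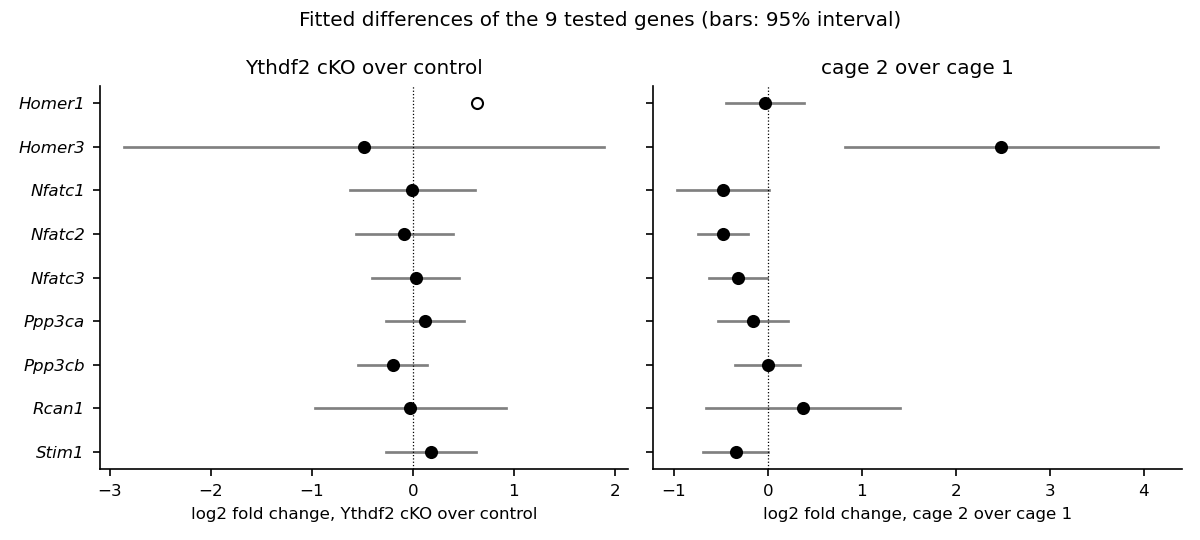
Fitted log2 fold changes of the 9 tested genes for Ythdf2 cKO over control (left) and cage 2 over cage 1 (right), with 95% intervals as bars; Homer1 is drawn open and without an interval on the left because it was chosen by that difference. All 8 intervals on the left span 0, and on the right those of Homer3, Nfatc2 and Nfatc3 do not, of which Nfatc2 passed after adjustment over all genes.

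Over all genes, edgeR called 0 of 13172 between the genotypes (0% of those tested), with 213 at an unadjusted p under 0.05 (1.62%), and DESeq2 called 0 with 279. These fits had no term for cage, so differences between cages add to their spread. The genotypes are unequal between the cages, so such differences also shift the estimates. Adding the cage moved Nfatc1 from -0.0044 to 0.21, Nfatc2 from -0.08 to 0.072, Stim1 from 0.18 to 0.30 and Homer3 from -0.48 to -1.03. Ppp3cb stayed at -0.20 and Homer1 at 0.64. With cage as a term edgeR also called 0, with 1345 of 13172 at an unadjusted p under 0.05. In the fit without cage 4 of the 9 tested members were above 0, counting Homer1, which was chosen for that direction, and 5 below. The median log2 fold change of the 9 was -0.0044, against -0.0049 over all genes. By cage 2 were above 0 and 7 below, with a median of -0.15 against 0.013 over all genes. The genotype difference was also compared between the cages. In this interaction fit 0 of 9 members passed, with 0.0456% of all genes called, 0.0304% as higher and 0.0152% as lower. The balance of the cage calls depended on the scaling: 1031 genes were higher and 485 lower with TMM, 647 and 765 with total counts alone (median of all genes -0.32) and 4730 and 12 when scaled to the Treg markers.

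The rest of the pathway was read from 5 lists. Among relatives of the members, Nfatc4 and Ppp3r2 had 4 and 0 reads in all 6 libraries and were not tested. Of the 4 tested genes edgeR called 0 by genotype and 0 by cage. With edgeR 0 and 3 were at an unadjusted p under 0.05, as were 1.62% and 26.5% of all genes tested. DESeq2 called 0 by genotype and 1 by cage, as lower in cage 2, beside 799 of all 13172 genes. By cage edgeR also called 1 as lower with total counts (765 of 13172 over all genes) or no low-count filter (873 of 27600). It called 1 as higher when scaled to the Treg markers (4730 of 13172). Nfat5, the NFAT of salt stress that calcineurin does not regulate, was at 337 ± 75.5 CPM in the Ythdf2 cKO libraries and 280 ± 43.6 CPM in the controls (SD, n = 3 each; log2 fold change 0.27 ± 0.21, edgeR adjusted p = 1.00). Stim2, a second calcium sensor, had a log2 fold change of 0.18 ± 0.21 by genotype. Ppp3cc, the gamma form of the calcineurin catalytic subunit, was at 32.997 ± 5.85 CPM in cage 2 and 49.2 ± 5.60 CPM in cage 1 (log2 fold change -0.67 ± 0.20, edgeR adjusted p = 0.061).

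Some genes of calcium entry and release were lower in cage 2, though not when scaled to the Treg markers. Of 19 tested, out of 20 listed, 6 passed as lower and 0 as higher by cage with edgeR, where 3.68% of all genes passed as lower and 7.83% as higher. DESeq2 called 8 as lower by cage, beside 799 of all 13172 genes. By genotype 0 passed in either direction with either tool. The 6 were Kcnn4, Plcg1, Itpr3, Atp2b4, Atp2a3 and Itpr2. Kcnn4, a calcium-activated potassium channel that sustains calcium entry, was at 41.4 ± 6.85 CPM in cage 2 and 68.0 ± 7.47 CPM in cage 1 (log2 fold change -0.79 ± 0.17, edgeR adjusted p = 0.022). Plcg1, the phospholipase that makes the messenger for calcium release, was at 248 ± 25.2 and 331 ± 18.2 CPM in cages 2 and 1 (-0.47 ± 0.12, edgeR adjusted p = 0.034). Itpr3 and Itpr2, receptors for that messenger and in neurons also partners of Homer, had log2 fold changes of -0.51 and -0.48. The list median was -0.36 by cage and 0.0026 by genotype, and the Treg markers had a median of -0.64 by cage in the same fit. The count depended on single libraries. Leaving out Ythdf2 cKO replicates 1, 2 and 3 in turn gave 1, 4 and 0 lower calls, beside 166, 309 and 65 over all genes. Leaving out control replicates 1, 2 and 3 in turn gave 2, 0 and 1, beside 375, 129 and 166. Scaled to the Treg markers 0 genes were lower and 5 higher, with a list median of 0.32 beside 0.69 over all genes, and Kcnn4 was at -0.12 (edgeR adjusted p = 0.63). Of all 13172 genes 4730 passed as higher and 12 as lower under that scaling. By genotype the smallest p-values were those of Atp2b4, a calcium pump (log2 fold change 0.31 ± 0.27), and Kcna3, a potassium channel (-0.27 ± 0.25), with edgeR adjusted p = 1.00 for both.

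Regulators of calcineurin and NFAT had medians of -0.014 by genotype and -0.17 by cage over 14 tested genes. With edgeR 0 passed by genotype and 1 by cage, as higher, a share near the 7.83% of all genes called higher. DESeq2 called 0 by genotype and 2 as higher by cage, beside 1550 of all 13172 genes. With Treg marker scaling edgeR called 7 as higher by cage, beside 4730 of 13172. The gene called by edgeR with TMM was Lrrk2, a kinase known to restrain NFAT. Its level was 14.4 ± 4.91 CPM in cage 2 and 3.55 ± 1.22 CPM in cage 1 (log2 fold change 2.25 ± 0.40, edgeR adjusted p = 0.0081). It was at 2.29 without control replicate 3 (edgeR adjusted p = 0.065), and the other 5 fits that lacked a library kept it past the threshold. Macrophage markers, of which 5 of 10 tested were higher and 0 lower in cage 2, had 8 of 12 at 0 in Ythdf2 cKO replicate 1. Their sums overlapped, at 18.6 to 272 CPM in cage 2 and 6.20 to 54.1 CPM in cage 1. Melanoma markers, all 12 higher in cage 2, summed to 2928 to 5981 CPM there and 60.7 to 611 CPM in cage 1. Of the fibroblast markers 3 of 4 tested were higher in cage 2. The part of any of these cells in the Lrrk2 difference was not tested. Ppia, which encodes the cyclophilin that carries cyclosporin to calcineurin, had a log2 fold change of 0.51 ± 0.16 by cage (edgeR adjusted p = 0.074). Dyrk2, a kinase that readies NFAT for export, and Nfatc2ip, an NFAT-interacting protein, had log2 fold changes of 0.28 ± 0.19 and -0.21 ± 0.27 by genotype (edgeR adjusted p = 1.00).

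Of 12 tested NFAT target genes of T cells, edgeR called 0 by genotype and 0 by cage, at medians of -0.0029 and -0.47. With edgeR 1 and 6 were at an unadjusted p under 0.05, as were 1.62% and 26.5% of all genes tested. Il2ra and Ctla4 belong both to this list and to the 9 Treg markers. The count by cage depended on the tool and setting. DESeq2 called 4 as lower in cage 2, beside 799 of all 13172 genes. With total counts edgeR called 4 as lower, beside 765 of 13172, and with no low-count filter 6 of 14, beside 873 of 27600. It called 1 with Ythdf2 cKO replicate 2 left out, beside 309 of 13701. With control replicates 1 and 2 left out in turn it called 2 and 3, beside 375 of 13847 and 129 of 13844. With Treg marker scaling it called 0, at a list median of 0.18 beside 0.69 over all genes. By genotype DESeq2 also called 0. Il2 and Il4 had 12 and 47 reads in all and were not tested. Cd40lg, the helper ligand of activated CD4 T cells, was at 16.6, 20.2 and 7.86 CPM in Ythdf2 cKO replicates 1 to 3, against 46.7, 37.0 and 22.3 CPM in control replicates 1 to 3. The groups did not overlap, as for 4.22% of all genes tested in this direction, and the log2 fold change was -1.25 ± 0.42 (SE; edgeR adjusted p = 1.00). Ifng was at 9.09 ± 4.74 CPM in the Ythdf2 cKO libraries and 4.65 ± 1.72 CPM in the controls (log2 fold change 0.96 ± 0.57, edgeR adjusted p = 1.00). Irf4 and Batf, transcription factors of effector Treg cells, had log2 fold changes of -0.77 ± 0.23 and -0.88 ± 0.26 by cage (edgeR adjusted p = 0.060 and 0.061).

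Of the partners of Homer in neurons and muscle, 4 of 10 had enough reads to be tested, and 0 passed in either comparison with edgeR or DESeq2 (0 at an unadjusted p under 0.05 with edgeR). Trpc1, a cation channel, was at 7.04 ± 1.32 CPM in the Ythdf2 cKO libraries and 4.49 ± 2.09 CPM in the controls (SD, n = 3 each; log2 fold change 0.65 ± 0.50), and Ryr3, a calcium release channel, had a log2 fold change of 0.69 ± 0.60 (edgeR adjusted p = 1.00 for both). Ryr1 and Ryr2, with only 78 and 45 reads in all 6 libraries, had log2 fold changes of -2.90 ± 1.48 and -0.89 ± 1.53 by cage (edgeR adjusted p = 0.25 and 0.76). The synaptic scaffold genes Shank1, Shank2 and Shank3 had 25, 25 and 42 reads in all 6 libraries.

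**Figure D4:**
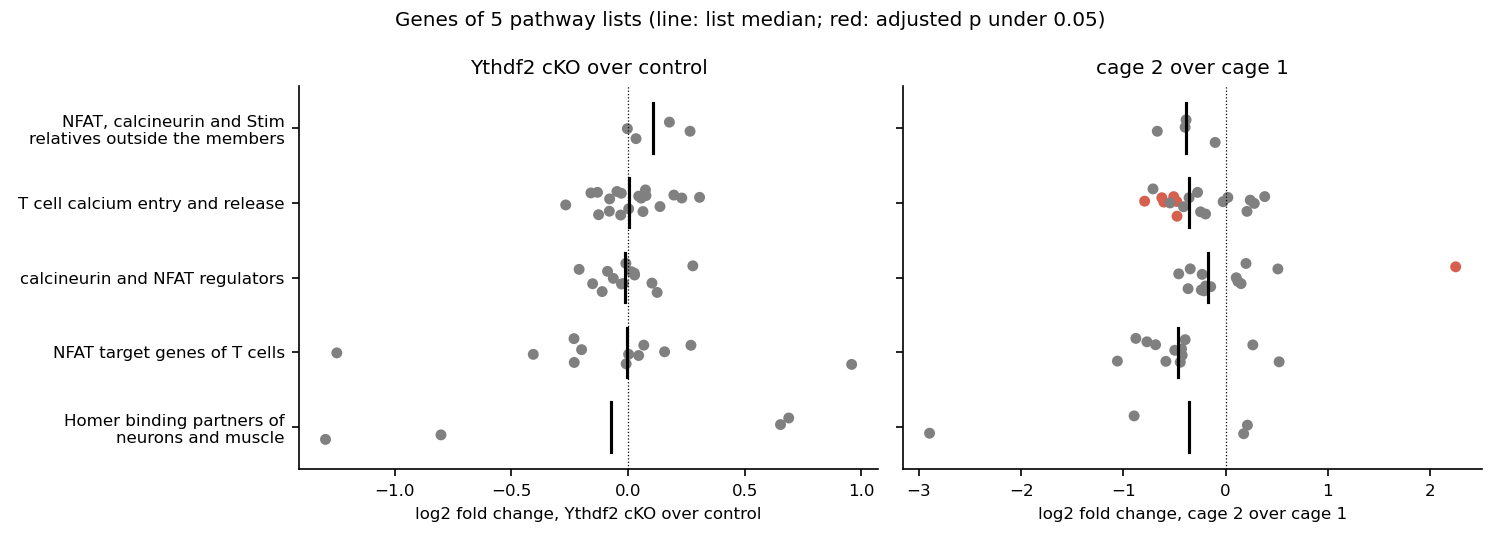
Log2 fold changes of the tested genes of the 5 lists for Ythdf2 cKO over control (left) and cage 2 over cage 1 (right), 1 point per gene, red where the adjusted p was under 0.05, with a line at the list median. By genotype 0 genes are red, and by cage 6 genes of calcium entry and release are red below 0 and Lrrk2 is red above 0.

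The m6A consensus core GGACT was counted in the longest coding transcript of each gene on the sense strand. Ppp3ca held 7 matches in 4758 bases (1.47 per kilobase), Nfatc3 8 in 5984 (1.34) and Ppp3cb 5 in 3831 (1.31). Homer1 held 5 in 5713 bases (0.88 per kilobase), Nfatc2 6 in 6828 (0.88), Rcan1 2 in 2324 (0.86) and Stim1 3 in 4362 (0.69), while Nfatc1 held 1 in 4797 (0.21). Over 11404 tested coding genes the median was 1.04 per kilobase, with quartiles of 0.64 and 1.5, and 92.7% held at least 1 match. Homer1 thus stood at the 39.7th percentile and Nfatc1 at the 7.70th. A match is a run of letters and no measure of methylation.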

How the data were processed

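RNA was measured in 6 libraries of sorted tumour Treg cells, prepared with a stranded total RNA kit per the labels' protocols. The authors deposited raw read counts per gene, 1 table per library, not normalized. Trimmomatic 0.39, HISAT2 2.1.0, HTSeq, DESeq2 and the build mm10 are named in the submitters' processing notes, while the sources used here do not give the annotation release or strand setting. Of 54446 genes 54409 matched GENCODE M21 by identifier, which gave symbols, coordinates and exon lengths. The summary lines of the counter were left out: 24.6% to 35.8% of records fell in no gene, 1.43% to 2.21% were ambiguous and 9.22% to 12.9% not uniquely aligned. Every pair of libraries differed beyond sampling noise, with a chi-square of 15.8 or more for each degree of freedom.

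With edgeR 4.0.16, low-count genes were dropped by filterByExpr (at least 10 counts, total at least 15) and the rest scaled by TMM and tested with the quasi-likelihood test in R 4.3.3, with p-values adjusted by Benjamini and Hochberg over 13172 genes and a threshold of 0.05. The genotype fit had the group as its only term, the cage fit had group and cage, and another fit added their interaction. The standard error is the log2 fold change divided by the root of the F statistic. The fits were tested on simulated counts. Levels between genes are CPM per kilobase of exon in place of the planned TPM, which differs by 1 factor per library. Alternatives were DESeq2 1.42.0, other scaling, other filters, a library size free of haemoglobin, mitochondrial and ribosomal RNA genes, cage or replicate number as a term and each library left out, and, added after the data were seen, scaling to the Treg markers. The members, the pathway lists and the marker lists were chosen with earlier results of these data known. Named were all members, up to 2 genes per list with the smallest p in each fit, and the 5 genes most like Homer1, with predicted and clone-like names passed over. The list genes past the threshold by cage and the genes with few reads were named after their values were seen. The labels mention no molecular identifiers, so reads need not be independent molecules and floors cover counting error only.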

Additional observations from a re-analysis of the deposited data

Results flagged for a closer look

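The libraries of Nfatc1 and Ppp3cb were ordered differently by genotype in the cages, for Ppp3cb by a margin near 0 in cage 2. Nfatc1 was at 230 CPM in the Ythdf2 cKO library of cage 1, below both of its controls at 240 and 288 CPM, and at 253 and 186 CPM in the Ythdf2 cKO libraries of cage 2, above the control there at 142 CPM. The log2 ratio of Ythdf2 cKO to control was -0.20 in cage 1 and 0.62 in cage 2, and the difference between them in the interaction fit was 0.82 ± 0.32 (SE; edgeR adjusted p = 0.31). Ppp3cb was at 75.4 CPM in the Ythdf2 cKO library of cage 1, below 102 and 98.5 CPM in its controls, and at 87.1 and 87.9 CPM in the Ythdf2 cKO libraries of cage 2, above 86.3 CPM in the control there. Its log2 ratio was -0.41 in cage 1 and 0.02 in cage 2, and its interaction was 0.43 ± 0.26 (SE; edgeR adjusted p = 0.49). Over all genes 6 passed the interaction test (0.0456%), and none of the 9 members did. Each within-cage value sets 1 library against 2.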

How the results depend on the processing

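By genotype, 14 of 15 alternatives also called 0 genes, and the exception was no low-count filter (33). The replicate block called 0 as well. The deviations of same-numbered libraries correlated at 0.41, -0.24 and 0.55 for replicates 1 to 3. Replicates 1 and replicates 3 share a cage, and replicates 2 do not. Differently numbered libraries of a cage also correlated, control replicate 2 with Ythdf2 cKO replicate 1 at 0.46. For control replicate 3 with Ythdf2 cKO replicate 2 it was 0.27. These values cannot show whether numbers pair the libraries, so the block is a fit on a shared number only. Member directions by genotype turned in 21 of 134 refits, none past the threshold. These include 15 refits of Homer1, which was chosen for its direction and turned in 0 of them. Homer3 ran from -0.96 to 1.08 with each library left out, Nfatc1 from -0.22 to 0.21, Nfatc2 from -0.27 to 0.016, Nfatc3 from -0.065 to 0.15 and Rcan1 from -0.19 to 0.13. Nfatc1 also turned with DESeq2 size factors (0.011), total counts (0.072), a mean CPM of at least 5 (0.010), DESeq2 (0.011), Treg marker scaling (0.082), cage as a term (0.21) and the replicate block (0.044), Nfatc2 with total counts (0.027) and cage as a term (0.072), and Rcan1 with total counts (0.13).

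By cage 1516 genes passed. The count was 2347 without a filter, 2349 with DESeq2, 4742 with Treg marker scaling and 849 with cage as the only term. It was 46 with the replicate block added to group and cage, under which Nfatc2 was at -0.43 (edgeR adjusted p = 0.96). That fit leaves few degrees of freedom, and only the replicate 2 libraries come from different cages. The count ran from 660 (without Ythdf2 cKO replicate 3) to 1233 with each library left out, with 735 in the fit lacking control replicate 2 and 826 in that lacking Ythdf2 cKO replicate 1. Treg marker scaling turned Homer1 (0.63), Nfatc1 (0.19), Nfatc2 (0.20), Nfatc3 (0.35), Ppp3ca (0.51), Ppp3cb (0.68) and Stim1 (0.32). The median of all genes moved by 0.69 under that scaling, above each of these values. Homer1, near 0, also turned at a mean CPM of at least 5 (0.0023), with cage as the only term (0.15) and with the block (0.11), and ran from -0.20 to 0.15 with each library left out. Ppp3cb turned with DESeq2 size factors (0.017), a mean CPM of at least 5 (0.032), DESeq2 (0.017) and the block (0.029), and ran from -0.23 to 0.23. Nfatc1 passed without a filter (-0.50, edgeR adjusted p = 0.024). The interaction called 6 genes, and 30 with total counts, 64 with DESeq2 and 3 at a mean CPM of at least 5. The cause of these shifts was not tested. Homer3 gave no value at a mean CPM of at least 5. Homer3 and Rcan1 are limited by depth, with 132 and 345 reads over the 6 libraries.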
